A study of Rattus norvegicus with 12 samples.

Results

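The 10 genes described here are transcription factors that specify or mark cardiac progenitors: Nkx2-5, Isl1, Hand1, Hand2, Mef2c, Tbx5, Tbx20, Tbx2, Tbx3 and Hopx. They were chosen by name, as known regulators of the early heart, with earlier results of these data known. Each was found by its symbol in a table of 32545 rat genes. All 10 had enough reads to be tested, among 14399 genes that did. RNA was sequenced from 12 cultures of rat heart cells in 4 groups of 3 biological replicates, and the deposited table holds read counts per gene. The GS_diff1 cells were GS cells kept in CMM medium, a condition for cardiomyocyte differentiation. The GS_diff2 cells were GS cells kept in CMM medium with added EGM2 solution, a condition for cardiomyocyte and endothelial differentiation. The GS cells themselves were undifferentiated and immortalized, and came from cardiac fibroblasts that overexpress Sall4 and Gata4 from viruses. The RCF cells were the parental wild-type rat cardiac fibroblasts, labelled untreated, which served as the control. A treatment protocol shared by all 12 samples names both viral genes for the RCF samples too, and the control label was followed. Every GS group therefore carries both viral genes and immortalization, and these cannot be told apart in a comparison with RCF. The sources used here do not give the promoter of the viruses, the number of GS clones, or the age, sex and strain of the rats.

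Heart muscle arises from the first heart field, which forms mostly the left ventricle and part of the atria, and from the second heart field, which adds the right ventricle, the outflow tract and more of the atria. Isl1 marks progenitors that still divide, Nkx2-5 and Tbx5 act with GATA factors at the same enhancers, and MEF2 factors activate muscle genes as the cells differentiate. Tbx2 and Tbx3 repress the chamber programme in the atrioventricular canal and in the conduction system, and Hopx accompanies commitment to the muscle fate. Several of these genes, Tbx20 and Hand2 among them, are also active in fibroblasts and other non-muscle cells of the heart.

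Library totals ran between 16255682 and 23117864 counts, and 16044 to 16707 genes had a count. Levels are given as normalised counts (CPM), for which each library total was scaled by the trimmed mean of M-values. Sall4 had no count in any RCF library and averaged 246 ± 8.58 CPM in GS cells (SD, n = 3), and Gata4 averaged 595 ± 7.21 CPM in GS cells against 206 ± 3.43 CPM in RCF cells, in the direction of the labels. The table does not separate viral from endogenous transcripts. All 14 fibroblast markers examined had counts in GS_diff1, GS and RCF cells, and Tcf21 was at 0 in all GS_diff2 libraries. Some were near 0: Dcn and Tcf21, named after their values were seen, had 4 and 5 counts in all GS_diff1 libraries together. In RCF libraries they had 2103 and 1191. The summed level of the 14 markers was 66007 to 67565 CPM in GS_diff1, 49306 to 50006 in GS_diff2, 73771 to 75023 in GS and 49357 to 52372 in RCF libraries. That sum is carried mostly by Col1a1, Col3a1 and Fn1, named after their values were seen. In GS against RCF cells 5 of the 14 were higher and 7 lower, against 35% and 36.3% of all tested genes. In GS_diff1 against GS cells 3 were higher and 9 lower (32% and 32.3%), and in GS_diff2 against GS cells 3 and 8 (33.3% and 33.7%). The 12 cardiomyocyte markers summed to 70.2 to 90.2 CPM in GS_diff1, 109 to 111 in GS_diff2, 21.7 to 29.7 in GS and 57.6 to 64.8 in RCF libraries. Of the 8 tested, 7 were higher and none lower in GS_diff1 against GS, against 32% and 32.3% of all tested genes. Those 7, apart from Ttn, were low in GS_diff1 cells, from 0.402 CPM for Tnni3 to 7.67 CPM for Tnnt2. Tnnt2 was at 15.1 CPM in RCF cells. In GS_diff2 against GS cells 3 were higher and 2 lower (33.3% and 33.7% of all tested genes). In GS_diff2 against GS_diff1 cells 2 were higher and 4 lower (32.1% and 31.5%). Most of the summed level was Ttn, the titin gene, named after its values were seen, with 64.95 CPM in GS_diff1, 72.0 in GS_diff2, 21.4 in GS and 44.6 in RCF cells. Among the 12 markers the ventricular light chain gene Myl2 was at 0 in all 12 libraries, and Myh7, a myosin heavy chain, was at 0 in GS_diff2, GS and RCF cells. In such bulk cultures, fewer cells of a type and less RNA per cell cannot be told apart.

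Every GS_diff1, GS_diff2 and GS library had counts of all 10 factors, and RCF libraries of 7 to 8. All GS groups contained Nkx2-5, Isl1 and Hand1 RNA, which RCF cells had at 0 to 3 counts per library, while RCF cells had more Tbx20 than any GS group. Tbx3 was highest in GS_diff1 and Hopx in GS_diff2. A gene was called when edgeR's quasi-likelihood test gave an adjusted p under 0.05, with Benjamini-Hochberg adjustment over all 14399 tested genes. In GS against RCF cells, 8 of the 10 were called, where 71.3% of all tested genes were. Of the 8, 6 were higher and 2 lower, against 35% and 36.3% of all genes. In GS_diff1 against GS cells, 5 were called, where 64.3% of all genes were, 1 higher (32% of all genes) and 4 lower (32.3%). The count was 5 in GS_diff2 against GS cells too, where 67% of all genes were called, with 1 higher (33.3%) and 4 lower (33.7%). For GS_diff2 against GS_diff1 cells it was 6, where 63.7% of all genes were called, with 4 higher (32.1%) and 2 lower (31.5%). All 10 were called in GS_diff1 against RCF cells, where 75.4% of all genes were, with 6 higher (38%) and 4 lower (37.4%). All 10 were called in GS_diff2 against RCF cells as well, where 72.5% of all genes were, with 7 higher (37.1%) and 3 lower (35.4%). The libraries of the 2 groups did not overlap for 8 of the 10 in GS against RCF (74.2% of all genes), 5 in GS_diff1 against GS (67%), 7 in GS_diff2 against GS (70.3%), 7 in GS_diff2 against GS_diff1 (67.8%), 10 in GS_diff1 against RCF (77.8%) and 10 in GS_diff2 against RCF (76.4%). Most genes changed in every comparison, so the share of members called lay near or under the background except in both differentiated groups against RCF cells, and the members are described by their size and direction. The comparisons share libraries: GS cells are in 3 of them, and RCF cells are in 3.

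**Figure D1:**
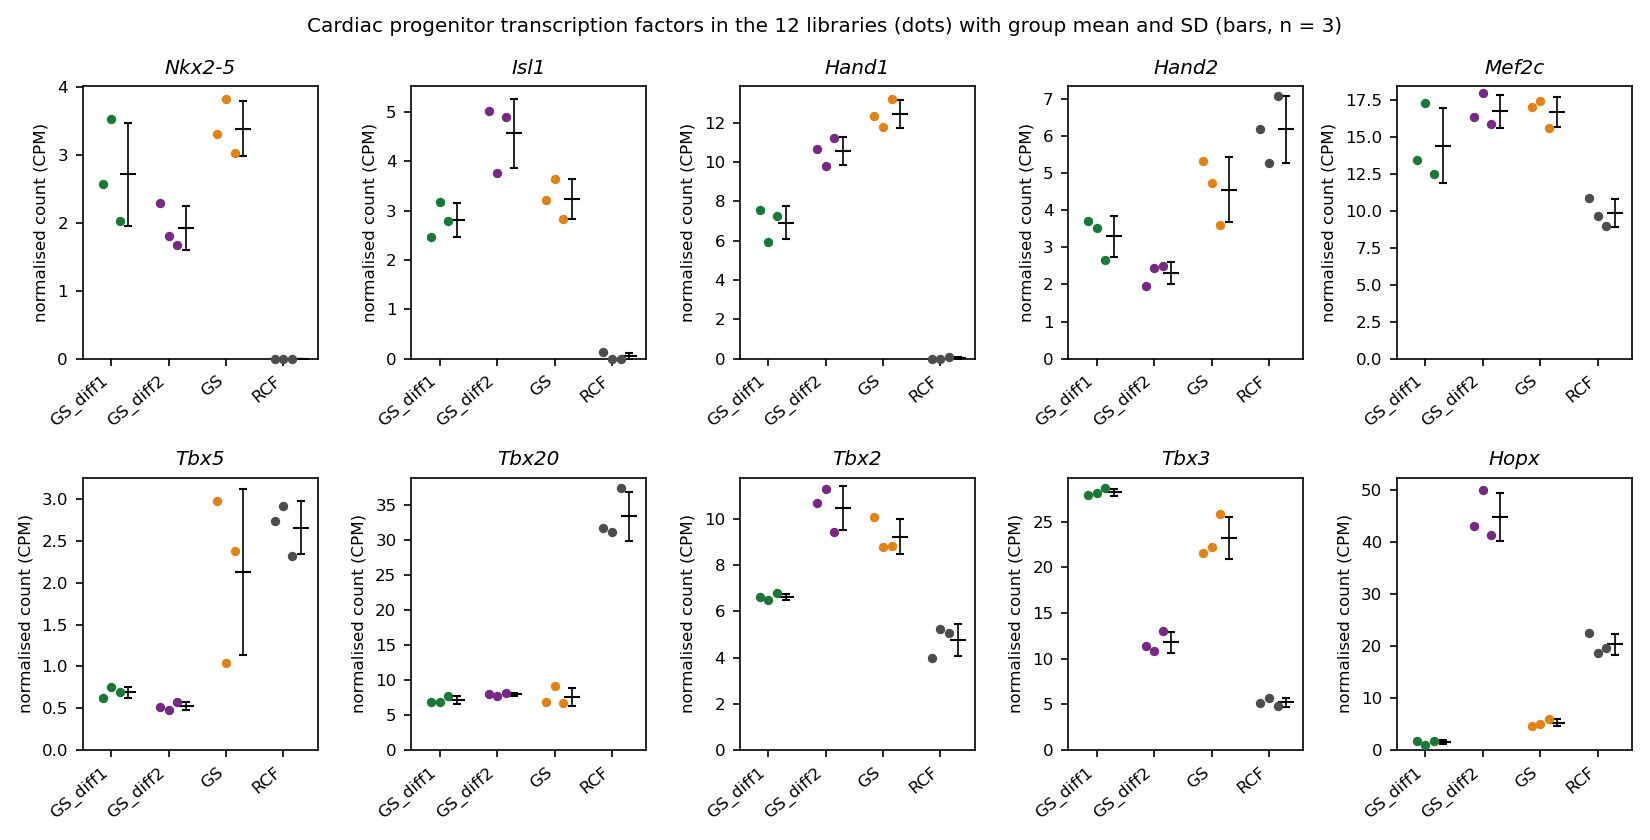
Normalised count (CPM, linear axes from 0) of each factor in the 12 libraries, with GS_diff1, GS_diff2, GS and RCF from left to right; dots are libraries, and bars show the mean and SD (n = 3). Nkx2-5, Isl1 and Hand1 lie at or near 0 in RCF cells, Tbx20 lies at 31.1 to 37.3 CPM there, and Hopx reaches 41.4 to 49.9 CPM in GS_diff2 cells.

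Nkx2-5 (ENSRNOG00000020747, chromosome 10, 16635989 to 16638764, plus strand, Rnor_6.0) encodes the NK2-class homeodomain factor of cardiac progenitors and of heart muscle. It had 2.57, 3.53 and 2.03 CPM in GS_diff1 libraries, 2.28, 1.80 and 1.67 CPM in GS_diff2 libraries, 3.30, 3.82 and 3.03 CPM in GS libraries, and no count in any RCF library. Every library of the 3 GS groups, at 32 to 72 reads, lay above all RCF libraries. Set against a floor of 3 counts per library, or 0.154 CPM, its level was at least 17.6-fold higher in GS_diff1, 12.4-fold higher in GS_diff2 and 22-fold higher in GS than in RCF cells, with an adjusted p of 1.05e-12 for GS against RCF. In GS_diff2 cells it was 1.77-fold lower than in GS cells (log2 fold change -0.82 ± 0.31 SE, adjusted p = 0.0199), with no overlap between the 2 groups. This call was lost when GS replicate 2 (adjusted p = 0.0694), GS_diff2 replicate 2 (0.0605) or GS_diff2 replicate 3 (0.0682) was left out, and over all settings the adjusted p ran between 0.00563 and 0.0694. The log2 difference of -0.32 ± 0.30 in GS_diff1 against GS cells missed the threshold (adjusted p = 0.367), and so did the difference of -0.50 between GS_diff2 and GS_diff1 cells (adjusted p = 0.156).

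Its promoter is shown as the 250 bases before the annotated start, because the gene had no count in RCF libraries and was detected in all others. The sequence is RefSeq's for GRCr8, a later build than that of the count table (chr10:16848350-16848599, plus strand). Capitals mark the only match to any of the 5 short motifs that were searched, an E-box, which is the kind of site that HAND and other basic helix-loop-helix proteins bind.
Nkx2-5: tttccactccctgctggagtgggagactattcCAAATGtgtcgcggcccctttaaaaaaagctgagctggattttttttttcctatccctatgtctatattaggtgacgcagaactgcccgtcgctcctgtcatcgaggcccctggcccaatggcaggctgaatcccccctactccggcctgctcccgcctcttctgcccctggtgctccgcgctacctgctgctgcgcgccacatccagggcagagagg

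Isl1 (ENSRNOG00000012556, chromosome 2, 48487736 to 48501436, minus strand) encodes the LIM-homeodomain factor of the second heart field. It had 2.47, 3.18 and 2.78 CPM in GS_diff1 libraries, 5.03, 3.77 and 4.91 CPM in GS_diff2 libraries, 3.21, 3.65 and 2.83 CPM in GS libraries, and 0.127, 0 and 0 CPM in RCF libraries. RCF replicate 1 held all 3 RCF reads, against 177 reads in the GS group. The ratio of summed counts was 60.1 (95% counting interval 20.2 to 294.5) for GS_diff1, 96.9 (32.8 to 472.8) for GS_diff2 and 69.5 (23.4 to 340.1) for GS over RCF cells, and the adjusted p for GS against RCF was 5.29e-12. Isl1 was highest in GS_diff2 cells, whose 3 libraries lay above all others. It was 1.62-fold higher in GS_diff2 than in GS_diff1 cells (log2 fold change 0.70 ± 0.30, adjusted p = 0.04). Leaving out GS_diff1 replicate 1 or 3, or GS_diff2 replicate 1 or 3, ended that call, with adjusted p between 0.0803 and 0.116, against 0.00962 to 0.116 over all settings. In GS_diff2 against GS cells the difference of 0.50 ± 0.29 missed the threshold (adjusted p = 0.137), although it passed when only those 2 groups were fitted (0.50, adjusted p = 0.047, in a range of 0.047 to 0.285 over all settings).

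Isl1 and both Hand genes are also active in sympathetic neurons and their precursors. Among 7 markers of those cells, Th and Sox10 were at 0 in all GS_diff1, GS_diff2 and GS libraries. The summed level of the 7 was 25.8 to 28.6 CPM in GS_diff1, 25.9 to 27.8 in GS_diff2, 26.8 to 28.0 in GS and 0.887 to 1.56 in RCF libraries. Of the 7, only 2 had enough reads to be tested. Both were higher in GS than in RCF cells, as were 35% of all tested genes.

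Hand1 and Hand2 encode basic helix-loop-helix factors, known from the mouse heart for the left and the right ventricle. Against RCF cells, both differentiated groups had more Hand1 and less Hand2. Hand1 (ENSRNOG00000002582, chromosome 10, 43250745 to 43253296, minus strand) had 7.56, 5.95 and 7.25 CPM in GS_diff1 libraries, 10.7, 9.81 and 11.2 CPM in GS_diff2 libraries, 12.3, 11.8 and 13.2 CPM in GS libraries, and 0, 0 and 0.0946 CPM in RCF libraries. GS cells had the most, and no GS library overlapped any library of another group. The ratio of summed counts was 222 (95% counting interval 61.2 to 1843) for GS_diff1, 338 (93.3 to 2801) for GS_diff2 and 399 (110.1 to 3303) for GS over RCF cells, resting on 2 RCF reads, both in replicate 3. The adjusted p for GS against RCF was 2.61e-19. Hand1 was 1.80-fold lower in GS_diff1 than in GS cells (log2 fold change -0.85 ± 0.18, adjusted p = 0.000156), and 1.53-fold higher in GS_diff2 than in GS_diff1 cells (0.61 ± 0.18, adjusted p = 0.00402). Between GS_diff2 and GS cells the difference of -0.24 ± 0.18 missed the threshold (adjusted p = 0.244).

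Hand2 (ENSRNOG00000060448, chromosome 16, 36371489 to 36373546, minus strand) had 3.71, 3.53 and 2.67 CPM in GS_diff1 libraries, 1.97, 2.45 and 2.51 CPM in GS_diff2 libraries, 5.32, 4.74 and 3.61 CPM in GS libraries, and 6.21, 5.29 and 7.10 CPM in RCF libraries. It was lowest in GS_diff2 cells and highest in RCF cells, and the GS libraries overlapped both RCF and GS_diff1 libraries. Both differentiated groups were lower than RCF cells, by 1.87-fold in GS_diff1 (log2 fold change -0.90 ± 0.22, adjusted p = 0.000508) and by 2.68-fold in GS_diff2 (-1.42 ± 0.22, adjusted p = 1.84e-06). GS_diff2 cells were also 1.98-fold lower than GS cells (-0.98 ± 0.23, adjusted p = 0.000366). The difference of -0.44 ± 0.22 between GS and RCF cells missed the threshold (adjusted p = 0.0711). It passed when library totals alone set the scale (-0.54, adjusted p = 0.0278), with limma-voom (adjusted p = 0.0412), and without GS replicate 1 (0.0452) or RCF replicate 2 (0.0476), in a range of 0.0278 to 0.27 over all settings. The difference of -0.47 ± 0.22 in GS_diff1 against GS cells missed it as well (adjusted p = 0.0683), and passed without GS replicate 3 (-0.61, adjusted p = 0.0306, in a range of 0.0306 to 0.251). The 1.43-fold lower level in GS_diff2 than in GS_diff1 cells had an adjusted p of 0.04999, and it was above 0.05 under most other settings, with adjusted p between 0.0249 and 0.160 over all of them.

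The promoters of the pair are shown because these related genes differed in direction, Hand1 being higher and Hand2 lower in both differentiated groups than in RCF cells. Both are RefSeq's 250 bases before the annotated start in GRCr8, on the gene's strand, from chr10:42509685-42509934 for Hand1 and chr16:37931489-37931738 for Hand2, both on the minus strand. Capitals mark a match to the letters TATAAA in Hand1, 121 bases before the start. In Hand2 they mark a pair of E-boxes and a GATA motif on the opposite strand.
Hand1: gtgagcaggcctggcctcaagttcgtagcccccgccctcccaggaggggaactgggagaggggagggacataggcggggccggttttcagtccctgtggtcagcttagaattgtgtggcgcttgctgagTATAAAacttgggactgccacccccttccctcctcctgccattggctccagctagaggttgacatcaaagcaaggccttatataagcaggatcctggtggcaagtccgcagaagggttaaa
Hand2: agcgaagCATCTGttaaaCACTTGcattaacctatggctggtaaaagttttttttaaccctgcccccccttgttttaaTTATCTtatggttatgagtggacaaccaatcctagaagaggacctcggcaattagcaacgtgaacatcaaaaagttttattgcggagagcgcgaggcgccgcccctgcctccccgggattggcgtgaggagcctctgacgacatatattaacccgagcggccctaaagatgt

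Hand2 lies head to head with a long intergenic noncoding RNA gene, AABR07025387.1 (ENSRNOG00000052518, chromosome 16, 36374593 to 36388331, plus strand), with 1047 bases between them. The neighbour averaged 2.55 CPM in GS_diff1, 2.32 in GS_diff2, 4.56 in GS and 4.74 in RCF cells. Like Hand2, it was lower in GS_diff2 than in GS cells, by 1.96-fold (log2 fold change -0.97 ± 0.24, adjusted p = 0.000845). It was also 1.78-fold lower in GS_diff1 than in GS cells (-0.83 ± 0.24, adjusted p = 0.0036), and the difference of -0.06 between GS and RCF cells missed the threshold (adjusted p = 0.843). A noncoding gene on the other side, AABR07025386.1, lies 74107 bases from Hand2 and had another order, with 2.03 CPM in GS_diff1, 4.76 in GS_diff2, 4.21 in GS and 4.5 in RCF cells. Its level was 2.33-fold higher in GS_diff2 than in GS_diff1 cells (adjusted p = 1.88e-05), the comparison in which Hand2 was lower. Whether strand was used in counting is not stated here, but no gene in the table overlaps Hand2 or any of the other 9.

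**Figure D2:**
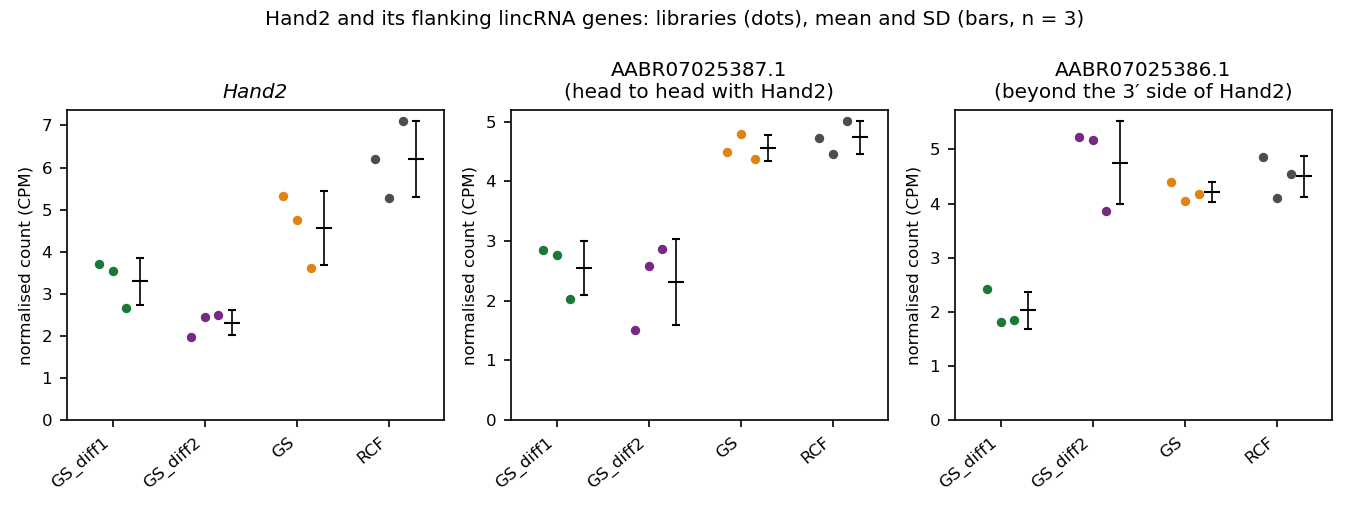
Normalised count (CPM, linear axes from 0) of Hand2 and of the noncoding genes on either side, in GS_diff1, GS_diff2, GS and RCF cells from left to right; dots are libraries, and bars show the mean and SD (n = 3). Hand2 and its head-to-head neighbour AABR07025387.1 were both called lower in GS_diff1 and GS_diff2 than in RCF cells, whereas AABR07025386.1 was called lower in GS_diff1 cells and not in GS_diff2 cells. In GS_diff1 against GS cells AABR07025387.1 was called lower and Hand2 was not.

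Mef2c (ENSRNOG00000033134, chromosome 2, 11658568 to 11822787, plus strand) encodes a MADS-box factor that activates muscle genes together with Nkx2-5, GATA and T-box factors. It had 13.5, 17.3 and 12.5 CPM in GS_diff1 libraries, 16.4, 18 and 15.9 CPM in GS_diff2 libraries, 17.0, 17.5 and 15.6 CPM in GS libraries, and 10.8, 9.65 and 8.99 CPM in RCF libraries. The 3 GS groups overlapped each other and all lay above RCF cells. The gene was 1.70-fold higher in GS than in RCF cells (log2 fold change 0.76 ± 0.12, adjusted p = 1.87e-06). The difference of -0.21 ± 0.12 in GS_diff1 against GS cells was not called (adjusted p = 0.123), nor was that of 0.22 in GS_diff2 against GS_diff1 cells (adjusted p = 0.113), but both passed without GS_diff1 replicate 2 (-0.35, adjusted p = 0.0153, and 0.36, adjusted p = 0.0135), the lowest values over all settings, of which the highest were 0.435 and 0.413. In GS_diff2 against GS cells the difference was 0.01 ± 0.12 (adjusted p = 0.973).

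The 4 T-box genes followed 4 different orders. Tbx5 (ENSRNOG00000001399, chromosome 12, 42097626 to 42148146, plus strand), a regulator of the first heart field and the atria, had 0.618, 0.756 and 0.695 CPM in GS_diff1 libraries, 0.519, 0.482 and 0.575 CPM in GS_diff2 libraries, 2.98, 1.04 and 2.38 CPM in GS libraries, and 2.75, 2.93 and 2.32 CPM in RCF libraries. GS replicate 2 was far below the other GS libraries, with 18 reads against 65 and 37, yet above every differentiated library. The gene was 3.10-fold lower in GS_diff1 than in GS cells (log2 fold change -1.63 ± 0.38, adjusted p = 0.000391), and 4.06-fold lower in GS_diff2 than in GS cells (-2.02 ± 0.39, adjusted p = 3.54e-05). Both rest on 10 to 15 reads in each differentiated library. In GS against RCF cells the difference of -0.31 ± 0.34 was not called (adjusted p = 0.421), and without GS replicate 2 it was 0.02. In GS_diff2 against GS_diff1 cells the difference was -0.39 (adjusted p = 0.427).

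Tbx20 (ENSRNOG00000016181, chromosome 8, 25850962 to 25904570, minus strand), needed for chamber growth and the valves, was highest in RCF cells. It had 6.80, 6.81 and 7.77 CPM in GS_diff1 libraries, 7.99, 7.75 and 8.10 CPM in GS_diff2 libraries, 6.88, 9.08 and 6.70 CPM in GS libraries, and 31.6, 31.1 and 37.3 CPM in RCF libraries. All 9 libraries of the GS groups lay below all RCF libraries. Against RCF cells, GS cells had 4.41-fold less (log2 fold change -2.14 ± 0.12, adjusted p = 8.72e-16), and the level was 4.68-fold lower in GS_diff1 and 4.20-fold lower in GS_diff2 than in RCF cells. Among the 3 GS groups no difference in Tbx20 was called, with -0.09 ± 0.13 in GS_diff1 against GS (adjusted p = 0.581) and 0.07 ± 0.13 in GS_diff2 against GS cells (adjusted p = 0.627), nor was that of 0.16 in GS_diff2 against GS_diff1 cells (adjusted p = 0.282). Among markers of macrophages and of epicardial and mesothelial cells, most but not all were lower in the GS groups than in RCF cells. The epicardial and mesothelial sum of GS_diff2 cells lay near that of RCF cells, unlike Tbx20. The fibroblast sum was higher in GS_diff1 and GS than in RCF libraries. The smooth muscle sum was higher in GS_diff1 and lower in GS_diff2 and GS than in RCF libraries. The 6 macrophage markers summed to 16.5 to 17.5 CPM in GS_diff1, 32.2 to 34.0 in GS_diff2, 23.1 to 26.9 in GS and 102 to 109 in RCF libraries. In GS against RCF cells 5 were lower and 1, Cd14, was higher. Cd14 and Lyz2 were named after their values were seen. Most of the sum in the GS groups was Cd14, with 14.12 CPM in GS_diff1, 29.45 in GS_diff2, 23.25 in GS and 17.34 in RCF cells. Lyz2 had 55.8 CPM in RCF cells, 0 in GS_diff1 and GS_diff2 and 0.348 in GS cells. Adgre1 was at 0 in all GS_diff1, GS_diff2 and GS libraries, and Ptprc at 0 in GS_diff1 and GS libraries. The 8 epicardial and mesothelial markers summed to 41.3 to 44.3 CPM in GS_diff1, 110 to 113 in GS_diff2, 44.7 to 48.7 in GS and 115 to 120 in RCF libraries, with Bnc1 at 0 in the 3 GS groups and Aldh1a2 and Upk3b at 0 in GS_diff2 cells. Of these 8, 6 were lower and 2 were higher in GS than in RCF cells, and the counts were the same in GS_diff2 against RCF cells. Over all tested genes 36.3% were lower and 35% higher in GS against RCF, and 35.4% and 37.1% in GS_diff2 against RCF cells. Msln, named after its values were seen, made up most of the GS_diff2 sum, with 7.58 CPM in GS_diff1, 99.2 in GS_diff2, 6.45 in GS and 2.77 in RCF cells. The part of such cells in the level of Tbx20 was not tested.

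Tbx2 (ENSRNOG00000003517, chromosome 10, 73279119 to 73289921, plus strand) and Tbx3 (ENSRNOG00000008706, chromosome 12, 42480560 to 42492526, minus strand) encode related repressors of chamber genes. Tbx2 had 6.61, 6.51 and 6.78 CPM in GS_diff1 libraries, 10.7, 11.3 and 9.45 CPM in GS_diff2 libraries, 10.1, 8.79 and 8.82 CPM in GS libraries, and 3.97, 5.24 and 5.06 CPM in RCF libraries. GS_diff1 libraries lay between the RCF libraries and those of the other groups, without overlap. It was 1.95-fold higher in GS than in RCF cells (log2 fold change 0.96 ± 0.16, adjusted p = 2.75e-06), 1.39-fold lower in GS_diff1 than in GS cells (-0.48 ± 0.15, adjusted p = 0.00752) and 1.58-fold higher in GS_diff2 than in GS_diff1 cells (0.66 ± 0.15, adjusted p = 0.000386). In GS_diff2 against GS cells the difference of 0.18 ± 0.15 was not called (adjusted p = 0.294). Its 1.40-fold higher level in GS_diff1 than in RCF cells was not called without RCF replicate 1 (adjusted p = 0.0538, in a range of 0.00546 to 0.0538 over all settings).

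Tbx3 had 27.9, 28.1 and 28.6 CPM in GS_diff1 libraries, 11.4, 10.9 and 13.1 CPM in GS_diff2 libraries, 21.6, 22.2 and 25.8 CPM in GS libraries, and 5.20, 5.75 and 4.78 CPM in RCF libraries. No library of any group overlapped another group. It was 4.43-fold higher in GS than in RCF cells (log2 fold change 2.15 ± 0.11, adjusted p = 6.73e-17). In GS_diff2 cells it was 1.97-fold lower than in GS cells (-0.98 ± 0.10, adjusted p = 1.2e-09) and 2.40-fold lower than in GS_diff1 cells (-1.26 ± 0.10, adjusted p = 4.68e-12). The 1.22-fold higher level in GS_diff1 than in GS cells (0.28 ± 0.10, adjusted p = 0.0138) was not called without GS replicate 1 (adjusted p = 0.0736) or GS replicate 2 (0.0543), and ran between 0.00289 and 0.0736 over all settings. In GS_diff2 against GS_diff1 cells, Tbx2 and Tbx3 therefore went in opposite directions, Tbx2 higher and Tbx3 lower. Tbx3 and Tbx5 are neighbours on chromosome 12 in Rnor_6.0, with 332414 bases and 6 annotated genes between them. In GRCr8 the promoter of Tbx5 is on the minus strand, not the plus strand, so this layout may not hold in that build. Of those 6, LOC100910735 had 6 counts or fewer in any group, and the other 5 had none. Tbx4, 43198 bases beyond Tbx2, had 2 counts in GS_diff1, 3 in GS_diff2, 7 in GS and 12 in RCF cells, too few to be tested.

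Hopx (ENSRNOG00000024689, chromosome 14, 33354807 to 33362551, plus strand) encodes a small homeodomain protein that does not bind DNA itself and that restrains serum response factor. It differed most between the groups that had been differentiated. It had 1.76, 1.06 and 1.74 CPM in GS_diff1 libraries, 43.0, 49.9 and 41.4 CPM in GS_diff2 libraries, 4.59, 5.09 and 5.92 CPM in GS libraries, and 22.6, 18.7 and 19.6 CPM in RCF libraries. No library of any group overlapped another group. The level was 3.4-fold lower in GS_diff1 than in GS cells (log2 fold change -1.77 ± 0.17, adjusted p = 2.34e-10), and 8.66-fold higher in GS_diff2 than in GS cells (3.11 ± 0.13, adjusted p = 5.78e-19). Directly compared, GS_diff2 cells had 29.5-fold more Hopx than GS_diff1 cells (4.88 ± 0.15, adjusted p = 5.24e-22), so CMM medium with and without EGM2 solution gave levels on either side of that of GS cells. GS cells were 3.93-fold lower than RCF cells (-1.97 ± 0.13, adjusted p = 2.92e-14). GS_diff1 cells were 13.4-fold lower than RCF cells (-3.74 ± 0.15, adjusted p = 2.2e-19), and GS_diff2 cells were 2.21-fold higher than RCF cells (1.14 ± 0.11, adjusted p = 2.16e-10). Every one of these differences was called under all settings tried.

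The summed level of smooth muscle markers had the opposite order to Hopx between the differentiated groups. The 6 summed to 2088 to 2141 CPM in GS_diff1, 140 to 150 in GS_diff2, 408 to 433 in GS and 717 to 737 in RCF libraries, with none at 0 in a whole group. Most of the sum was Acta2 and Tagln, named after their values were seen, with 961 and 1107 CPM in GS_diff1 and 9.85 and 124 in GS_diff2 cells. In GS_diff1 against GS cells all 6 were higher, against 32% of all tested genes. In GS_diff2 against GS_diff1 cells 4 were lower (31.5% of all tested genes) and none higher, and Myh11 and Smtn were not called. Those 2 were higher in GS_diff2 than in GS cells (33.3% of all tested genes), where the other 4 were lower (33.7%). Endothelial markers, of interest because EGM2 was added for GS_diff2, summed to 38.7 to 43.3 CPM in GS_diff1, 34.6 to 35.3 in GS_diff2, 28.2 to 29.2 in GS and 34.1 to 38.6 in RCF libraries over 9 genes, with Emcn and Cldn5 at 0 in all 12 libraries. The part of these cell types in the levels of Hopx was not tested. The promoter of Hopx is shown because this gene changed the most between the differentiated groups. It is RefSeq's for GRCr8 (chr14:31429163-31429412, plus strand), and capitals mark its only motif match, an E-box.
Hopx: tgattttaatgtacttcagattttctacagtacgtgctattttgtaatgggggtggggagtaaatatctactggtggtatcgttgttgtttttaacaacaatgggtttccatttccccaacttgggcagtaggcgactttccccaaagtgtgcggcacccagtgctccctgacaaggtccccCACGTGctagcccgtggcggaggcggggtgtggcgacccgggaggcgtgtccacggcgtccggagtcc

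**Figure D3:**
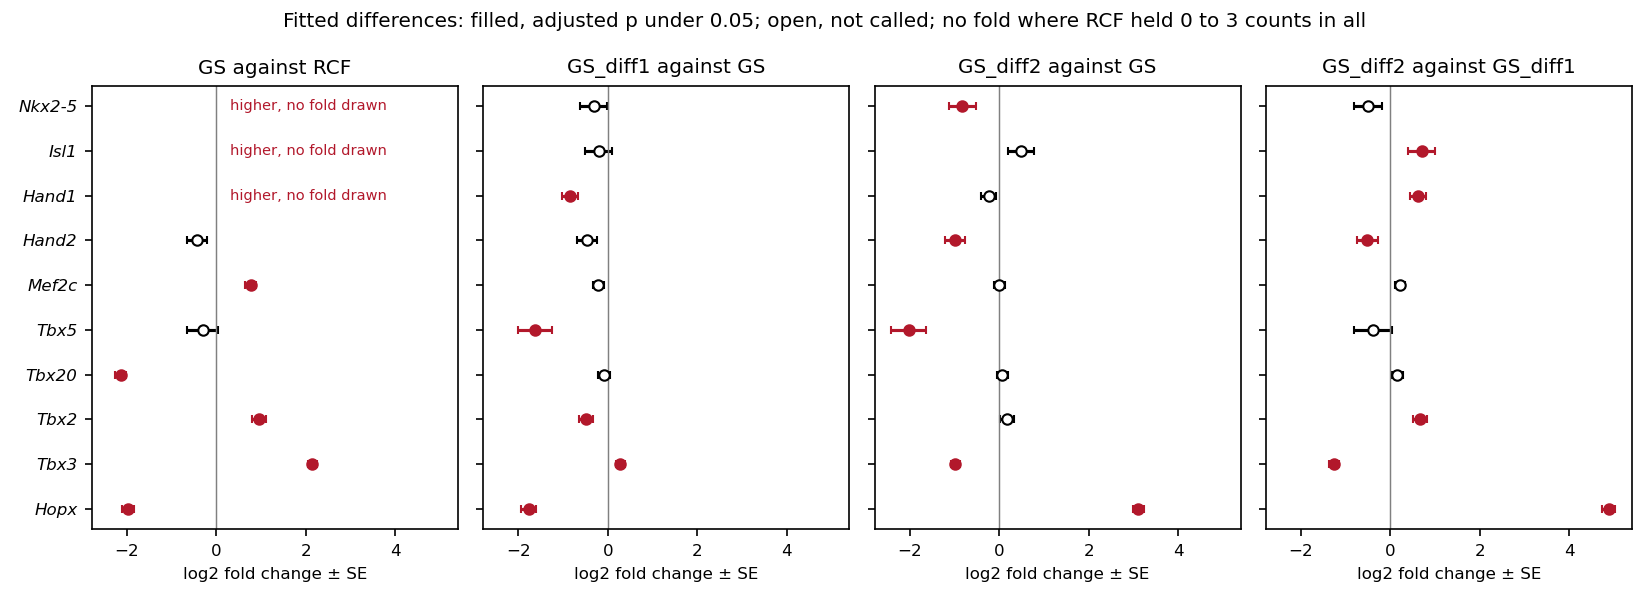
Fitted log2 fold change ± SE (x axis) of each factor (rows) in 4 comparisons; filled points were called at an adjusted p under 0.05, and open points were not. Hopx lies at -1.77 for GS_diff1 against GS and at 3.11 for GS_diff2 against GS, and no fold is drawn for Nkx2-5, Isl1 and Hand1 in GS against RCF, where RCF held 0 to 3 counts in all.

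Matches to 5 short motifs were counted on both strands in the 250 bases before the annotated start, for the 7 members that the RefSeq promoter table holds. The GATA motif was written as AGATAA or AGATAG or TGATAA or TGATAG, and 3 of the 7 promoters held it, those of Isl1, Tbx5 and Hand2, against 27.0% of all 33469 promoters of that length. In Hand2 it lies 172 bases before the start. The E-box was written as CANNTG, and 5 of the 7 held it, all but Tbx20 and Hand1, against 65.5% of all promoters. The E-box of Nkx2-5 starts 218 bases before the start, those of Hand2 at 243 and 232 bases, and that of Hopx at 68 bases. The T-box motif AGGTGT was in none of the 7 and in 11.6% of all promoters, and the NK2 motif TNAAGTG was in none of the 7 and in 9.89% of all. The TATA motif TATAAA was in 1 of the 7, Hand1, at 121 bases before the start, and in 12.9% of all. No motif overlapped another in the 4 sequences shown, and a match is a run of letters, not a measured binding site.

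Levels can be compared between genes only per length, so each CPM was divided by the length of the gene model in kilobases. In GS_diff1 cells Tbx3 was the highest of the 10, with 9.34 ± 0.128 CPM per kilobase (SD, n = 3), and Hand1 followed with 6.55 ± 0.808. In GS_diff2 cells Hopx was the highest, with 43.1 ± 4.36 CPM per kilobase, and Hand1 and Tbx2 followed within an SD of each other, Tbx2 with 9.57 ± 0.859. In GS cells Hand1 led with 11.8 ± 0.666 CPM per kilobase, above Tbx2 with 8.44 ± 0.679, Tbx3 with 7.68 ± 0.75 and Hand2 with 7.07 ± 1.35. Those last 3 lay within 1 SD of each other or close to it, so their order is not resolved. In RCF cells Hopx led with 19.5 ± 1.94 CPM per kilobase, followed by Tbx20 with 15.04 ± 1.57 and Hand2 with 9.61 ± 1.4. Tbx5 was the lowest of the 10 in GS_diff1, GS_diff2 and GS cells, with 0.197, 0.150 and 0.610 CPM per kilobase, and Nkx2-5, at 0, was the lowest in RCF cells. The models of Hand2 (645 bases) and Tbx2 (1095 bases) are short, and a model that lacks part of a transcript shifts these values. The CPM of the 10 genes summed to 72.9 to 76.7 in GS_diff1, 109 to 116 in GS_diff2, 87.4 to 87.9 in GS and 78.6 to 85.3 in RCF libraries.

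**Figure D4:**
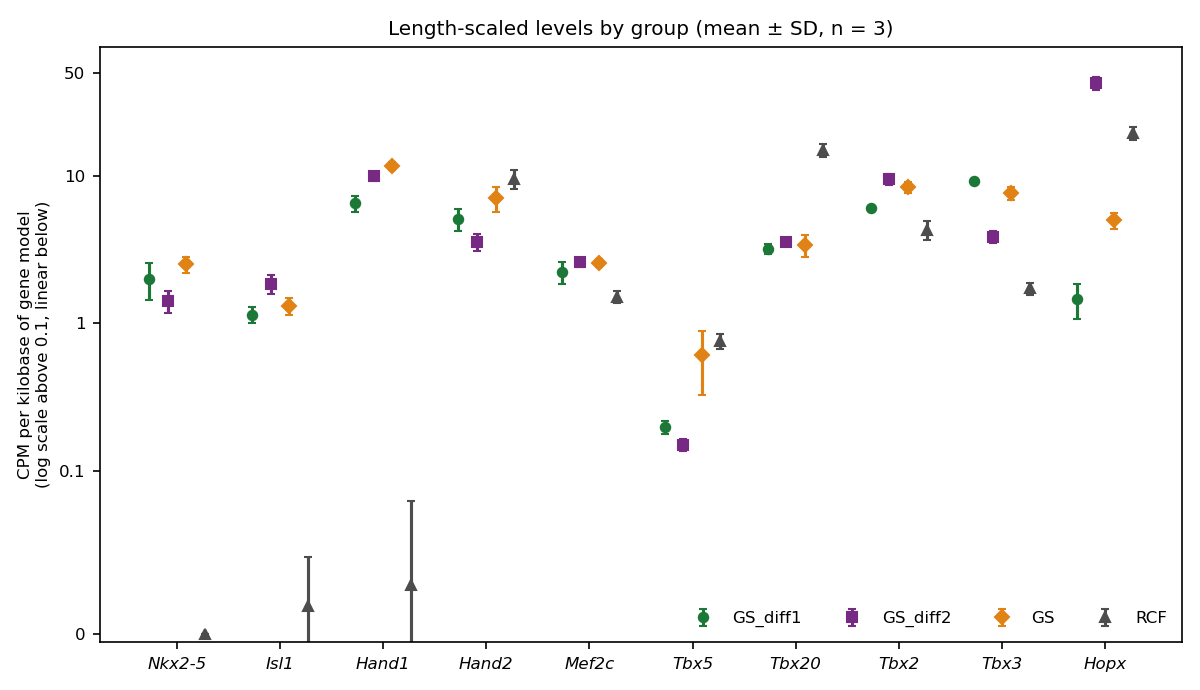
Length-scaled level of each factor (CPM per kilobase of gene model, log scale above 0.1 and linear below) in GS_diff1, GS_diff2, GS and RCF cells; markers are group means and bars the SD (n = 3). Outside Nkx2-5, Isl1 and Hand1, Hopx spans the widest range, with 1.46 in GS_diff1 and 43.1 in GS_diff2 cells.

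Over the 12 libraries, levels of Nkx2-5, Isl1 and Hand1 varied together, with Pearson's r of 0.96 to 0.977 on log2 CPM, and against Tbx20, with r of -0.98 to -0.964. These 12 points are 4 groups of replicates, not 12 independent conditions, so r is given as a description. For Nkx2-5, Isl1 and Hand1 it rests largely on the RCF libraries, at 0 to 3 counts each. Among the GS groups their orders differed. Nkx2-5 was lowest in GS_diff2 cells (1.92 CPM), where Isl1 was highest (4.57 CPM), and Hand1 was lowest in GS_diff1 cells (6.92 CPM). Hopx and Tbx3 had an r of -0.755, Hand1 and Hand2 one of -0.684, Tbx2 and Tbx3 one of 0.48, and Tbx5 and Hand2 one of 0.839. Among 13670 genes searched, those most like Nkx2-5 were Lypd3 (r = 0.997), Pls1 (0.995) and Sall1 (0.994). Isl1 was most like Coro2a (0.994), Cep70 (0.993) and the T-box gene Eomes (0.993), and Hand1 like Fgfr4 (0.998), Scube2 (0.996) and Ooep (0.996). The closest genes to Hopx were Nt5e (0.994), Zbtb7a (0.992) and rnf141 (0.992), and those to Tbx3 were Grb14 (0.995), Ube2d3 (0.994) and AABR07016056.1 (0.994). Nt5e, which encodes the surface nucleotidase CD73, averaged 5.82 CPM in GS_diff1, 343 in GS_diff2, 27.2 in GS and 129 in RCF cells. Tbx20 was most like AC128836.1 (0.994), Sptbn1 (0.991) and AABR07035641.2 (0.991), and Tbx2 was like Qsox1 (0.974) and Atg101 (0.971). The likeness was lower for Tbx5, whose closest gene was Ovca2 (0.962), for Hand2, with Zxdc (0.968), and for Mef2c, with Foxd1 (0.955).

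The nearest annotated genes to Nkx2-5 and Hand1 on chromosome 10 did not share their order of levels. Stc2, 82694 bases from Nkx2-5, averaged 6.67 CPM in GS_diff1, 7.35 in GS_diff2, 62.4 in GS and 32.1 in RCF cells. Bnip1, 38313 bases away on the other side, averaged 13.9 CPM in GS_diff1, 17.6 in GS_diff2, 14.8 in GS and 12.1 in RCF cells. Sap30l, 19134 bases from Hand1, averaged 19.0 CPM in GS_diff1, 22.8 in GS_diff2, 19.6 in GS and 31.6 in RCF cells.

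Partners, relatives, upstream signals and targets of the 10 factors were grouped into 6 lists. Their counts are to be read beside the shares over all tested genes. Those were 35% higher and 36.3% lower in GS against RCF, and 32% and 32.3% in GS_diff1 against GS cells. They were 33.3% and 33.7% in GS_diff2 against GS, and 32.1% and 31.5% in GS_diff2 against GS_diff1 cells. Of the 6 GATA factors, cofactors and viral factors, 5 were tested, and in GS against RCF cells 4 were higher and 1 was lower, with a median log2 fold change of 1.53 against -0.03 over all tested genes. Gata6, a cardiac GATA factor, had 227 ± 0.801 CPM in GS and 47.3 ± 0.755 CPM in RCF cells (4.79-fold higher, adjusted p = 2.71e-29), and the cofactor Zfpm2 had 21.9 ± 3.14 CPM in GS and 38.0 ± 1.85 CPM in RCF cells (1.73-fold lower, adjusted p = 9.1e-09). In GS_diff2 against GS cells all 5 were lower, with a median of -0.97, and Sall4 had 69.6 ± 2.55 CPM in GS_diff2 against 246 ± 8.58 CPM in GS cells (3.54-fold lower, adjusted p = 1.41e-24). In GS_diff1 against GS cells 4 were lower and 1 was higher, with a median of -0.13, and the calls of Sall4 and Gata6 there were lost when library totals alone set the scale. Sall4 and Gata4 are in this list because the viruses carry them, so its direction in GS against RCF is not independent of the design.

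Among the other T-box genes, 8 of 13 were tested, and in GS against RCF cells 5 were higher and 2 lower (median 0.84). Eomes averaged 4.98 CPM in GS_diff1, 11.4 in GS_diff2, 5.82 in GS and 0.0862 in RCF cells, with an adjusted p of 8.79e-14 for GS against RCF. Tbx18, a gene of the epicardium and the sinus horns, averaged 28.9 CPM in GS_diff1, 14.5 in GS_diff2, 29.6 in GS and 88.4 in RCF cells, with 2.99-fold less in GS than in RCF cells (adjusted p = 7.06e-19). In GS_diff1 against GS cells 2 of the 8 were lower and none higher (median -0.22), and in GS_diff2 against GS cells 3 were lower and 1 higher (median -0.06). Tbx1, a gene of the second heart field, was at 0 in RCF cells and averaged 0.717 CPM in GS_diff1, 0.0292 in GS_diff2 and 1.85 in GS cells.

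Of 16 MEF2, NK2, LIM and MADS partners in the table, 11 were tested, and in GS against RCF cells 8 were higher and 1 lower (median 0.37). In GS_diff2 against GS_diff1 cells 7 were lower and 3 higher (median -0.56, against 0.0039 over all genes). Myocd, the coactivator of serum response factor, averaged 10.5 CPM in GS_diff1, 1.01 in GS_diff2, 3.73 in GS and 0.0422 in RCF cells. It was 2.80-fold higher in GS_diff1 than in GS cells (adjusted p = 1.62e-05) and 3.68-fold lower in GS_diff2 than in GS cells (adjusted p = 2.3e-06). That order is the reverse of the one Hopx had among the 3 GS groups. Mef2a, a relative of Mef2c, averaged 57.6 CPM in GS_diff1, 136 in GS_diff2, 137 in GS and 106 in RCF cells, and was 2.39-fold lower in GS_diff1 than in GS cells (adjusted p = 1.39e-20), where Mef2c was not called. Mef2b was 5.22-fold lower in GS_diff2 than in GS cells (adjusted p = 1.66e-07).

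Of 33 other heart field and chamber regulators, 22 were tested. In GS against RCF cells all 22 were called, against 71.3% of all tested genes, with 14 higher and 8 lower (median 0.39). Osr1, a gene of the second heart field and the early mesoderm, averaged 97.9 CPM in GS_diff1, 41.9 in GS_diff2, 268 in GS and 23.5 in RCF cells, and was 11.4-fold higher in GS than in RCF cells (adjusted p = 1.06e-31). The epicardial and fibroblast factors Tcf21 and Wt1 were 48.6-fold and 5.33-fold lower in GS than in RCF cells, with 0.396 and 7.0 CPM in GS against 18.5 and 37.2 CPM in RCF cells (adjusted p = 2.38e-08 and 1.5e-16). Of the 22, in GS_diff1 against GS cells, 11 were lower and 5 higher (median -0.50), and in GS_diff2 against GS cells 13 were lower and 2 higher (median -0.54).

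Heart field signals and receptors had 16 of 22 genes tested, of which 12 were higher and 3 lower in GS than in RCF cells (median 2.08). Fgf10, a ligand made by the second heart field, averaged 18.6 CPM in GS_diff1, 61.1 in GS_diff2, 77.2 in GS and 0.997 in RCF cells, and was 77.1-fold higher in GS than in RCF cells (adjusted p = 6.92e-30). Gli1, a target of hedgehog signalling, was 49.0-fold higher in GS than in RCF cells (adjusted p = 4.39e-14), with 5.603 against 0.105 CPM. Aldh1a2, which makes retinoic acid, averaged 4.54 CPM in GS_diff1, 0 in GS_diff2, 1.62 in GS and 49.4 in RCF cells. The ligand Bmp2, which induces Tbx2 in the atrioventricular canal, averaged 5.73 CPM in GS_diff1, 53.9 in GS_diff2, 9.98 in GS and 10.3 in RCF cells. It was 9.40-fold higher in GS_diff2 than in GS_diff1 cells (adjusted p = 2.72e-20), where Tbx2 was higher too, and 5.39-fold higher in GS_diff2 than in GS cells (adjusted p = 6.87e-18), where Tbx2 was not called. In GS against RCF cells, where Tbx2 was higher, Bmp2 was not called (adjusted p = 0.778). Wnt5a was 9.31-fold higher in GS_diff2 than in GS_diff1 cells, and endothelin gene Edn1 12.8-fold lower (adjusted p = 7.08e-22 and 9.64e-25). Of the 16, in GS_diff1 against GS cells, 11 were lower and 4 higher (median -0.32), and in GS_diff2 against GS cells 9 were lower and 3 higher (median -0.33).

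Cardiac genes known as targets of these factors had 22 of 30 tested. In GS_diff1 against GS cells 12 were higher and 2 lower, with a median of 1.33 against -0.0024 over all genes. The share called, 63.6%, was near the 64.3% of all tested genes, of which 32% were higher and 32.3% lower. This list holds all 12 cardiomyocyte markers, so its 12 higher genes include the 7 markers already counted as higher. Markers of other cells went both ways in the same comparison. Of these, 6 of 6 smooth muscle markers and 4 of 5 tested endothelial markers were higher and none lower. Fibroblast markers had 3 higher and 9 lower, epicardial and mesothelial markers 1 and 4, and macrophage markers 2 and 2. The 2 tested markers of sympathetic neurons and neural crest had 1 higher and 0 lower. The part of all these cells in the rise of this list was not tested. In GS_diff2 against GS cells 9 were higher and 6 lower (median 0.04), in GS_diff2 against GS_diff1 cells 5 were higher and 12 lower (median -0.52), and in GS against RCF cells 10 were higher and 7 lower (median 0.05). Mybpc3, a sarcomere protein gene, had no count in RCF cells and averaged 95.6 CPM in GS_diff1, 25.1 in GS_diff2 and 16.1 in GS cells, being 5.90-fold higher in GS_diff1 than in GS cells (adjusted p = 2.43e-11). The embryonic troponin gene Tnni1 also had no count in RCF cells, and averaged 8.81 CPM in GS_diff1, 15.2 in GS_diff2 and 0.536 in GS cells. Tnnt2, the cardiac troponin T gene, averaged 7.67 CPM in GS_diff1, 34.1 in GS_diff2, 1.96 in GS and 15.1 in RCF cells, and was 17.3-fold higher in GS_diff2 than in GS cells (adjusted p = 4.95e-22). The pacemaker channel gene Hcn4 averaged 0.666 CPM in GS_diff1, 0.208 in GS_diff2, 9.61 in GS and 0.0966 in RCF cells. It was 14.2-fold lower in GS_diff1 and 46.8-fold lower in GS_diff2 than in GS cells (adjusted p = 7.74e-07 and 3.6e-08). The connexin gene Gja5, a target that Tbx5 and Nkx2-5 activate and Tbx3 represses, had no count in GS cells and averaged 0.0317 CPM in GS_diff1, 1.45 in GS_diff2 and 1.09 in RCF cells.

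**Figure D5:**
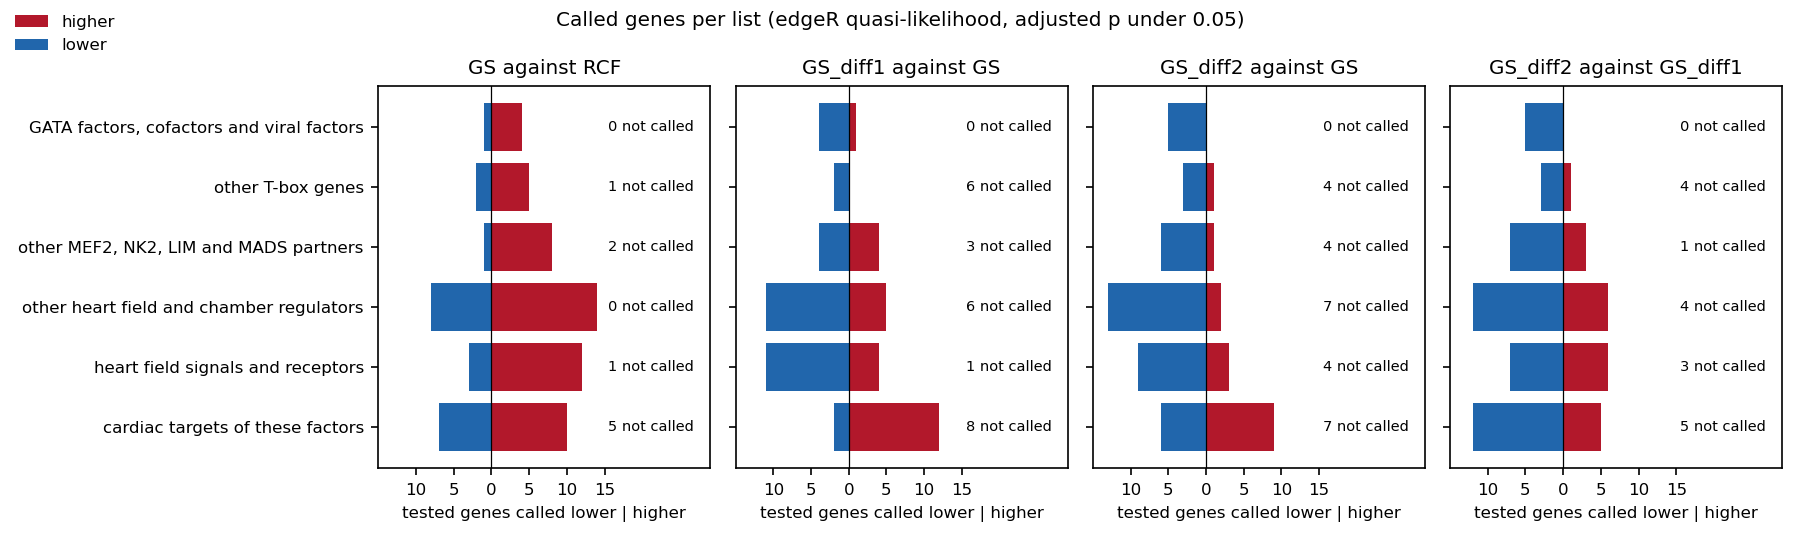
Number of tested genes called lower (left of 0) or higher (right of 0) at an adjusted p under 0.05, in 6 lists of related genes (rows) and 4 comparisons (panels). The list of cardiac targets has 12 genes higher and 2 lower in GS_diff1 against GS, and 5 higher and 12 lower in GS_diff2 against GS_diff1. Over all tested genes 32% were higher and 32.3% lower in the former, and 32.1% and 31.5% in the latter.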

How the data were processed

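The deposited values are read counts per gene, which the authors made from RNA sequencing of the 12 cultures (RNeasy Mini kit, Ovation RNA-seq System v2, per the labels' protocols). The submitters' processing notes name Bowtie 0.12.2 and the builds mm8 and Rnor_6.0, with no role for either. No counting tool, annotation release or strand setting is stated here, and gene positions are those of the deposited table, taken as Rnor_6.0, the rat build among those named. Replicate libraries differed by more than counting noise (chi-square per degree of freedom 4.44 to 7.57 in 12 pairs).

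Counts were tested with edgeR 4.0.16 (R 4.3.3; TMM scaling, filterByExpr, robust quasi-likelihood fit of 4 group means over 12 libraries), with Benjamini-Hochberg adjustment over 14399 genes; the biological coefficient of variation was 9.72%. The procedure was tested on simulated data. Fold changes come from this fit, except where RCF had 0 to 3 counts in all: there a floor of 3 counts per library, or the ratio of summed counts with an exact 95% interval, is given. Both cover counting error only. Alternatives used limma 3.58.1 and DESeq2 1.42.0, other scalings and filters, a replicate block, and leaving out each library. Promoters are RefSeq's for GRCr8, and 7 of 10 members matched.

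The members and gene lists were chosen with earlier results of these data known. In the lists, 182 of 184 symbols matched the table and 133 were tested. Genes named from a list are among the called ones with the largest rises and falls in a comparison, with a mean of 1 CPM or more in the group where they were higher, plus Sall4 and Gata4. The genes most like a member are among those with the highest r of log2 CPM (prior count 2), and some genes are not reported here. P-values measure the spread between cultures.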

Additional observations from a re-analysis of the deposited data

How the results depend on the processing

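The number of the 10 factors called moved by at most 1.5 times under every alternative run: TMM against DESeq2's size factors or library totals alone, no filter or a filter of 1 CPM in 3 libraries, limma-voom, DESeq2, a fit of the compared groups alone, and each library left out. With libraries left out it was 8 to 9 in GS against RCF, 4 to 6 in GS_diff1 against GS, 4 to 5 in GS_diff2 against GS and 4 to 6 in GS_diff2 against GS_diff1. No called difference changed direction. Among those not called, the log2 difference changed sign with a library left out for Tbx5 in GS against RCF (-0.6434 to 0.0157), Tbx20 in GS_diff1 against GS (-0.1595 to 0.0662), Tbx20 in GS_diff2 against GS (-0.0008 to 0.2248) and Mef2c in GS_diff2 against GS (-0.0502 to 0.0425). Replicate numbers did not pair the cultures: deviations of 18 same-numbered pairs had r of -0.045 to 0.0759, none over 0.1. With a replicate block, 8, 5, 5 and 4 factors were called in those 4 comparisons, and Isl1 (adjusted p = 0.0511) and Hand2 (0.0643) were the calls lost, both in GS_diff2 against GS_diff1. Library totals alone shifted the median of all genes by at most -0.0994 (log2, in GS against RCF) and lost the calls of 9 listed genes, among them Tbx6, Meis1, Nr2f2 and Bmpr1a in GS against RCF. Low depth limits several factors, with 10 to 15 reads of Tbx5 per differentiated library and 21 to 37 of Hopx per GS_diff1 library, and 3 libraries per group limit every SD.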
